A study of Mus musculus with 15 samples.

Results

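The amino acid response genes are the transcripts that mammalian cells induce when amino acids run short. Here 10 of them were followed across mouse livers: the transcription factors Atf4, Atf5 and Ddit3, the synthesis enzymes Asns, Psat1 and Phgdh, the inhibitors Trib3, Ddit4 and Sesn2, and the glutathione-degrading enzyme Chac1. The members were all probe sets that the platform annotation gives to 1 of these symbols alone, which were 20 probe sets for 10 of the 18194 genes measured. A further 2 probe sets for Phgdh carry a second symbol and were left out. Liver RNA was measured on Affymetrix Mouse Genome arrays, 1 array per mouse, in 15 male mice that were 10 weeks old when dosing started. The XKA group was 5 KKAy mice on a high-fat diet that received Xiao-Ke-An, a Chinese herbal medicine, by oral gavage at 1.5 g/kg once daily for 32 days. The KKAy model group was 5 mice of the same strain and diet that received distilled water. The C57BL/6J group was 5 non-diabetic mice on normal chow that received distilled water and came from another supplier.

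Both KKAy groups carry the Ay allele of agouti, so only the comparison of XKA with the KKAy model holds strain, diet and supplier the same. The methods do not give the time of day at which the livers were taken. Strain, diet and supplier differ together between either KKAy group and C57BL/6J and cannot be told apart. The methods give the mice as fed at sacrifice but the blood drawn just then as fasting, so whether these livers were fed is not settled. Values are probe-set signals scaled to a median of 1000 on each array, so a signal of 1000 is the middle probe set of its array. Signals of different probe sets are not compared with each other. Changes are on the log2 scale, so 1 is a doubling. They were tested with limma, and p-values were adjusted by Benjamini-Hochberg over all genes. A gene is represented by its brightest probe set, and passed at an adjusted p under 0.05. The 5 arrays per group limit the precision, with a median standard error of 0.28 on the log2 scale over all genes. Of the 8 hepatocyte markers checked, among them Alb and Cps1, none passed after scaling in any comparison, but for the KKAy model over C57BL/6J 1 was lower without scaling and 2 after quantile normalization. For the same groups 2 of 5 endothelial markers were higher (Stab2 and Clec4g, median of the 5 0.18), against 1 higher and 1 lower without scaling. Of all genes, 10.6% passed upward between these groups after scaling. Of the 5 stellate cell markers 1 was higher (Col3a1) with a median of -0.17, and none passed without scaling. The acinar marker Cpb1 passed as higher (adjusted p = 0.0289 from limma), 1 of 4 of its list, but it lay below the array median on every array. Its signals were 32.6 to 863 in the XKA arrays, 157 to 985 in the KKAy model arrays and 68.1 to 170 in the C57BL/6J arrays. No change is given for it for that reason. None of the 6 Kupffer cell markers passed there or for XKA over the KKAy model, but all 6 changes were above 0 for the KKAy model over C57BL/6J (median 0.52, and 4 of 6 above 0 without scaling) and all 6 below 0 for XKA over the KKAy model (median -0.64). Their summed signal was 98607 to 198730 in the XKA arrays, 126879 to 345649 in the KKAy model arrays and 109387 to 190230 in the C57BL/6J arrays. The part of these cell types in the values of the 10 genes was not tested. In whole liver a change in the share of a cell type and a change in RNA per cell cannot be told apart. The scaling moves the middle of the distribution. For the KKAy model over C57BL/6J the median change over the 18194 genes was 0.15 after scaling, -0.04 without scaling and 0.04 after quantile normalization.

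The response runs through eIF2alpha. The kinase GCN2 is activated by uncharged tRNA and PERK by unfolded protein in the endoplasmic reticulum, and both phosphorylate eIF2alpha, which slows translation in general but favours translation of the Atf4 mRNA. ATF4 then pairs with C/EBP factors on composite sites, the C/EBP-ATF response elements, and induces enzymes, transporters and tRNA synthetases that restore the amino acid supply. Because ATF4 is controlled largely at translation, its mRNA need not follow its protein, which was not measured here. In liver the pathway is known for its part in protein restriction, in endoplasmic reticulum stress and in the induction of Fgf21.

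The core of that element, TGATGNAA, was searched on both strands of the 300-base promoters of RefSeq, which run from 250 bases before to 50 bases after each start site. All 10 members had a promoter in the table. The letters were present in 3 members, Asns, Chac1 and Trib3, and in 4.51% of all 27025 genes. The stretches that hold it are shown for these 3. Between XKA and C57BL/6J, Asns passed as higher and Trib3 as lower, while Chac1 passed in no comparison. Atf5 and Sesn2, which passed with Asns between the KKAy model and C57BL/6J, had no match. They are given 5′ to 3′ on the strand of the gene with the match in capitals, from build GRCm38.p6. The Asns stretch is chr6:7693210-7693292 on the minus strand, with the match 23 bases before the start site. The Chac1 stretch is chr2:119350992-119351116 on the plus strand, with the match 193 bases before the start site and reading on the opposite strand. The Trib3 stretch is chr2:152344028-152344057 on the minus strand, with the match 15 bases past the start site, also on the opposite strand.
Asns: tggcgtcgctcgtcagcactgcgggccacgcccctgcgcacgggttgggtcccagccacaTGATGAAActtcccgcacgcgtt
Chac1: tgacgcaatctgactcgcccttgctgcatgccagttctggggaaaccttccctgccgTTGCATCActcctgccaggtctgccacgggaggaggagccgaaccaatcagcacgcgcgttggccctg
Trib3: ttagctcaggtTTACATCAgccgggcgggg
A match is a description of the letters and not a site of binding. The other 7 members, on chromosomes 3, 4, 7, 10, 15 and 19, had no match in this window, which says nothing of elements elsewhere in these genes.

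Compared to C57BL/6J, the KKAy model had higher signals of Atf5, Asns and Sesn2. These 3 of the 10 genes passed the test and none was lower, where 13% of all 18194 genes passed and 10.6% passed upward. The median change of the 10 was 0.55, against 0.15 for all genes. The groups did not overlap for 4 of the 10 (these 3 and Ddit3), where 10.6% of all genes did not overlap. The same 3 genes passed without scaling and after quantile normalization. None of the 10 passed for XKA over the KKAy model, where 0.176% of all genes (32) passed, and 1567 genes had an unadjusted p under 0.05. The median change of the 10 there was -0.33, against -0.06 for all genes. By representative probe sets none of the 10 had groups without overlap in this comparison (1.42% of all genes) or for XKA over C57BL/6J (7.03%). Between XKA and C57BL/6J, Asns was higher and Trib3 lower, 2 of the 10, where 7.48% of all genes passed, 5.53% upward and 1.95% downward. These comparisons share arrays and are not independent of each other.

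**Figure D1:**
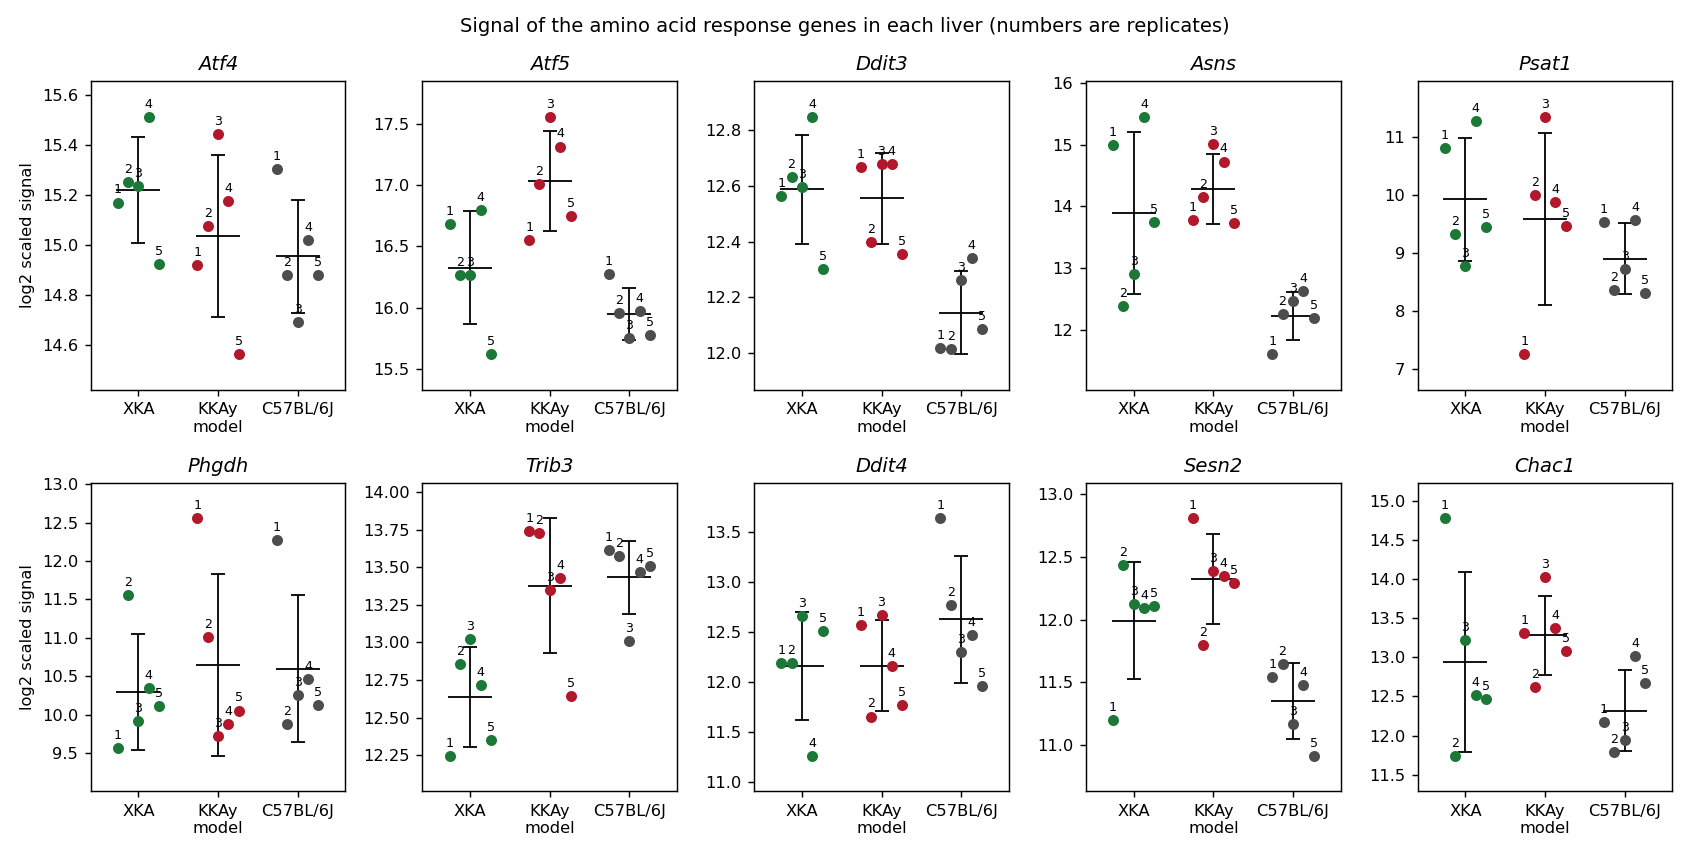
Log2 scaled signal (y axis) of the representative probe set of each gene in each array, for the XKA, KKAy model and C57BL/6J groups (x axis). Numbers are replicates, bars the mean ± SD of the log2 signal (n = 5), and y axes differ between genes. Asns sits above every C57BL/6J array in all 5 KKAy model arrays and spreads widely under XKA, while Trib3 sits low under XKA.

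**Figure D2:**
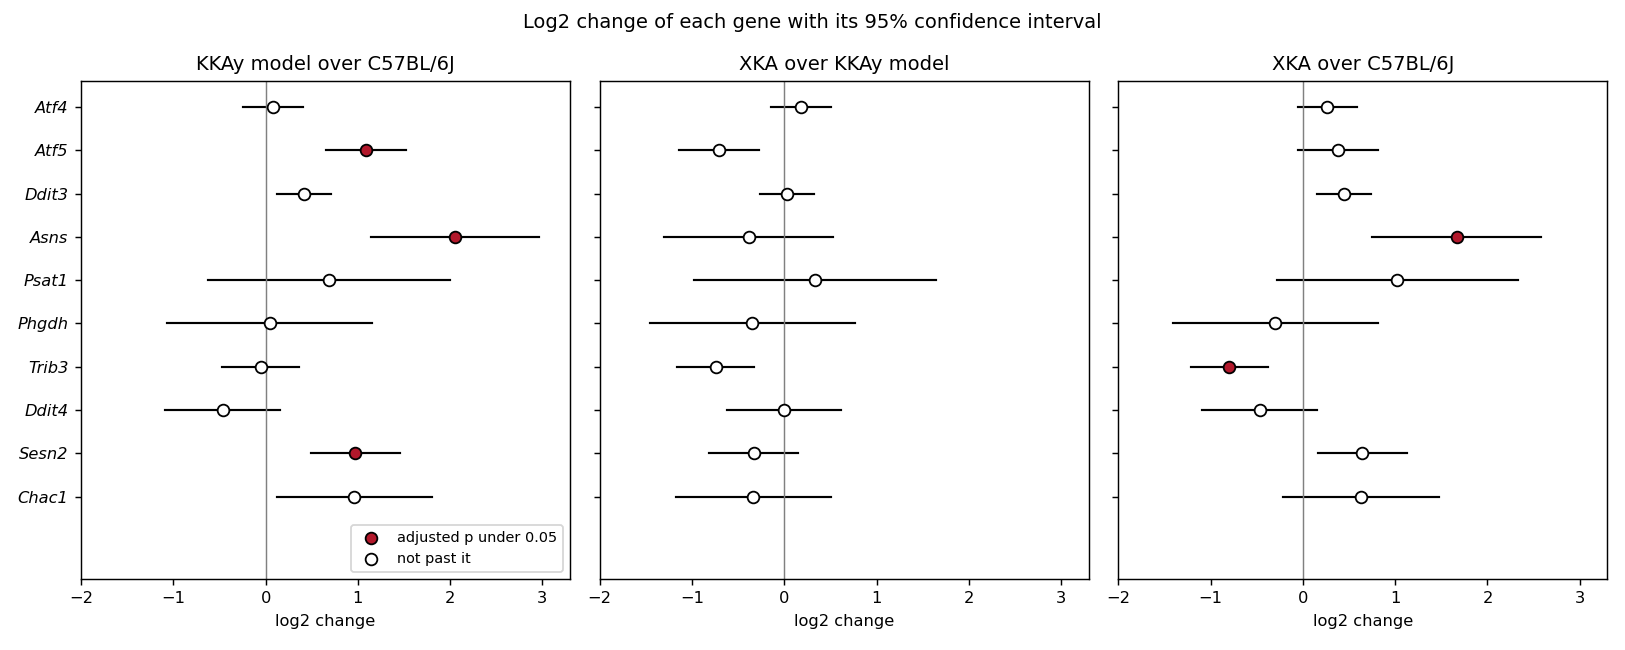
Log2 change (x axis) of each gene (y axis) in the 3 comparisons, with its 95% confidence interval from limma. Filled points have an adjusted p under 0.05. They are Atf5, Asns and Sesn2 for the KKAy model over C57BL/6J, none for XKA over the KKAy model, and Asns and Trib3 for XKA over C57BL/6J.

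Atf4, the central factor of the response, had signals of 36871, 39077, 38558, 46790 and 31056 in the XKA arrays, 30961, 34559, 44574, 37072 and 24212 in the KKAy model arrays and 40428, 30174, 26454, 33225 and 30156 in the C57BL/6J arrays (replicates 1 to 5, probe set 1448135_at). The 3 groups overlapped throughout. The change was 0.08 for the KKAy model over C57BL/6J (95% confidence interval -0.24 to 0.40, adjusted p = 0.806 from limma), 0.18 for XKA over the KKAy model (-0.14 to 0.50, adjusted p = 0.794) and 0.26 for XKA over C57BL/6J (-0.06 to 0.59, adjusted p = 0.383). The change between the KKAy model and C57BL/6J had the other sign, at -0.11, in the values as deposited. The second bright Atf4 probe set, 1438992_x_at, did not pass either, and its signal correlated with the first at r = 0.41 over the 15 arrays. A dim probe set, 1439258_at, lay below the array median on all 15 arrays.

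Atf5 encodes a related bZIP factor that is abundant in liver and that is likewise favoured in translation under stress. Its 1 probe set had signals of 105077, 78929, 79059, 113677 and 50500 in the XKA arrays, 96262, 131463, 192724, 162860 and 110006 in the KKAy model arrays and 79433, 63792, 55268, 64293 and 56204 in the C57BL/6J arrays. All 5 KKAy model arrays lay above all 5 C57BL/6J arrays, and the XKA arrays overlapped with both. Atf5 rose 2.12-fold in the KKAy model over C57BL/6J (1.09 on the log2 scale with a standard error of 0.21, adjusted p = 0.00139 from limma). This call was kept under all 26 alternative settings. The XKA mean was 85448 ± 24934, against 138663 ± 39303 in the KKAy model (SD, n = 5 each). The change of -0.71 did not pass the test over all genes (95% confidence interval -1.14 to -0.27, adjusted p = 0.231). XKA over C57BL/6J gave 0.38 (-0.05 to 0.81, adjusted p = 0.340).

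Ddit3 encodes CHOP, a factor induced downstream of ATF4 under lasting stress. Its signals were 6058, 6343, 6184, 7375 and 5044 in the XKA arrays, 6499, 5399, 6558, 6558 and 5243 in the KKAy model arrays and 4151, 4134, 4914, 5182 and 4352 in the C57BL/6J arrays (1417516_at). The KKAy model arrays all lay above the C57BL/6J arrays, and the XKA arrays lay in the range of the KKAy model apart from 1 higher and 1 lower array. The change was 0.41 for the KKAy model over C57BL/6J (standard error 0.14, adjusted p = 0.0601 from limma) and 0.44 for XKA over C57BL/6J (standard error 0.14, adjusted p = 0.0615), both just short of the threshold. For the KKAy model it passed in 4 of the 26 alternative settings and for XKA in 3 of 26. XKA over the KKAy model gave 0.03 (95% confidence interval -0.26 to 0.33, adjusted p = 0.972). The other probe set, 1443897_at, lay below the array median on all 15 arrays.

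Asns encodes asparagine synthetase, which makes asparagine from aspartate and glutamine and is the textbook target of the response. By the representative probe sets it showed the widest change of the 10 between the KKAy model and C57BL/6J. Its signals were 32658, 5356, 7617, 44861 and 13707 in the XKA arrays, 14086, 18160, 32932, 27097 and 13583 in the KKAy model arrays and 3111, 4863, 5669, 6299 and 4682 in the C57BL/6J arrays (1451095_at). Every KKAy model array lay above every C57BL/6J array, whereas the XKA arrays split, with replicates 1 and 4 high, replicate 5 between and replicates 2 and 3 at or near the C57BL/6J range. Over C57BL/6J, Asns rose 4.15-fold in the KKAy model (2.05 on the log2 scale with a standard error of 0.44, adjusted p = 0.00343 from limma) and 3.18-fold under XKA (1.67 with a standard error of 0.44, adjusted p = 0.0224). The call for XKA was lost without XKA replicate 1 (adjusted p = 0.0589), without XKA replicate 4 (0.0613) and without C57BL/6J replicate 1 (0.0567), and held in 20 of 26 alternative settings, whose adjusted p ran from 0.00342 to 0.187.

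The XKA mean of Asns was 20840 ± 17191, against 21172 ± 8519 in the KKAy model (SD, n = 5 each). The coefficient of variation was 82.5% under XKA, 40.2% in the KKAy model and 24.4% in C57BL/6J. XKA over the KKAy model gave -0.38 (95% confidence interval -1.30 to 0.53, adjusted p = 0.862), an interval that holds both a marked decrease and an increase. The second Asns probe set, 1433966_x_at, had signals of 27311, 2714, 3312, 26492 and 7538 in the XKA arrays, 8914, 8562, 23125, 16025 and 8212 in the KKAy model arrays and 2121, 2657, 2597, 2615 and 2536 in the C57BL/6J arrays. It carried the same split and correlated with the first at r = 0.984 over the 15 arrays. In the fit of all probe sets, XKA over C57BL/6J was past the threshold for both (adjusted p = 0.0271 for 1451095_at and 0.0421 for 1433966_x_at), a call kept in 16 of 25 alternative settings for 1451095_at and in 9 of 25 for 1433966_x_at. Neither was kept without scaling (0.0559 and 0.0754). The summed signal of 7 acute phase genes was highest in XKA replicate 1 of the XKA arrays (3361760, the others 677746 to 2402880) and in KKAy model replicate 3 of the KKAy model arrays (4752020, the others 1361840 to 2425220). Both had high Asns for their group, while XKA replicate 4, with the highest Asns of all, had an acute phase sum of 972115. The part of the acute phase in the Asns values was not tested. Without XKA replicate 1 and KKAy model replicate 3 together, a choice made after seeing the data, the Asns change for XKA over C57BL/6J was 1.39 (adjusted p = 0.0535).

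Psat1 and Phgdh encode consecutive enzymes of serine synthesis from a glycolytic intermediate. The Psat1 probe set 1454607_s_at had signals of 1797, 642, 439, 2477 and 699 in the XKA arrays, 153, 1027, 2621, 944 and 707 in the KKAy model arrays and 739, 331, 423, 761 and 319 in the C57BL/6J arrays. Only 4 of the 15 arrays lay above the array median, XKA replicates 1 and 4 and KKAy model replicates 2 and 3. The change was 0.69 for the KKAy model over C57BL/6J (95% confidence interval -0.62 to 2.00, adjusted p = 0.552 from limma) and 1.02 for XKA over C57BL/6J (-0.29 to 2.33, adjusted p = 0.413). XKA over the KKAy model gave 0.33 (-0.97 to 1.64, adjusted p = 0.929). All C57BL/6J signals of this probe set were below the array median, which limits these changes. The second probe set, 1451064_a_at, was also above the array median on those 4 arrays alone, with signals of 98.0 to 2261 in the XKA arrays, 110 to 3431 in the KKAy model arrays and 25.7 to 127 in the C57BL/6J arrays. No change is given for 1451064_a_at, because its C57BL/6J signals all lay farther below the array median of 1000 than those of 1454607_s_at. For 1451064_a_at the KKAy model over C57BL/6J missed the threshold over all probe sets, of which 8.45% passed (adjusted p = 0.0597), and passed in 5 of 24 alternative settings.

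Phgdh did not pass in any comparison. Its brightest probe set, 1426658_x_at, had signals of 762, 3010, 968, 1298 and 1104 in the XKA arrays, 6016, 2067, 846, 942 and 1064 in the KKAy model arrays and 4966, 944, 1226, 1407 and 1114 in the C57BL/6J arrays. In each group 1 array stood well above the other 4, which was replicate 2 under XKA and replicate 1 in the KKAy model and in C57BL/6J. The change was 0.05 for the KKAy model over C57BL/6J (95% confidence interval -1.07 to 1.16, adjusted p = 0.974), -0.35 for XKA over the KKAy model (-1.46 to 0.77) and -0.30 for XKA over C57BL/6J (-1.41 to 0.81). The 4 Phgdh probe sets correlated with each other at r = -0.195 to 0.470 over the 15 arrays, so they do not give 1 measurement of the gene.

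**Figure D3:**
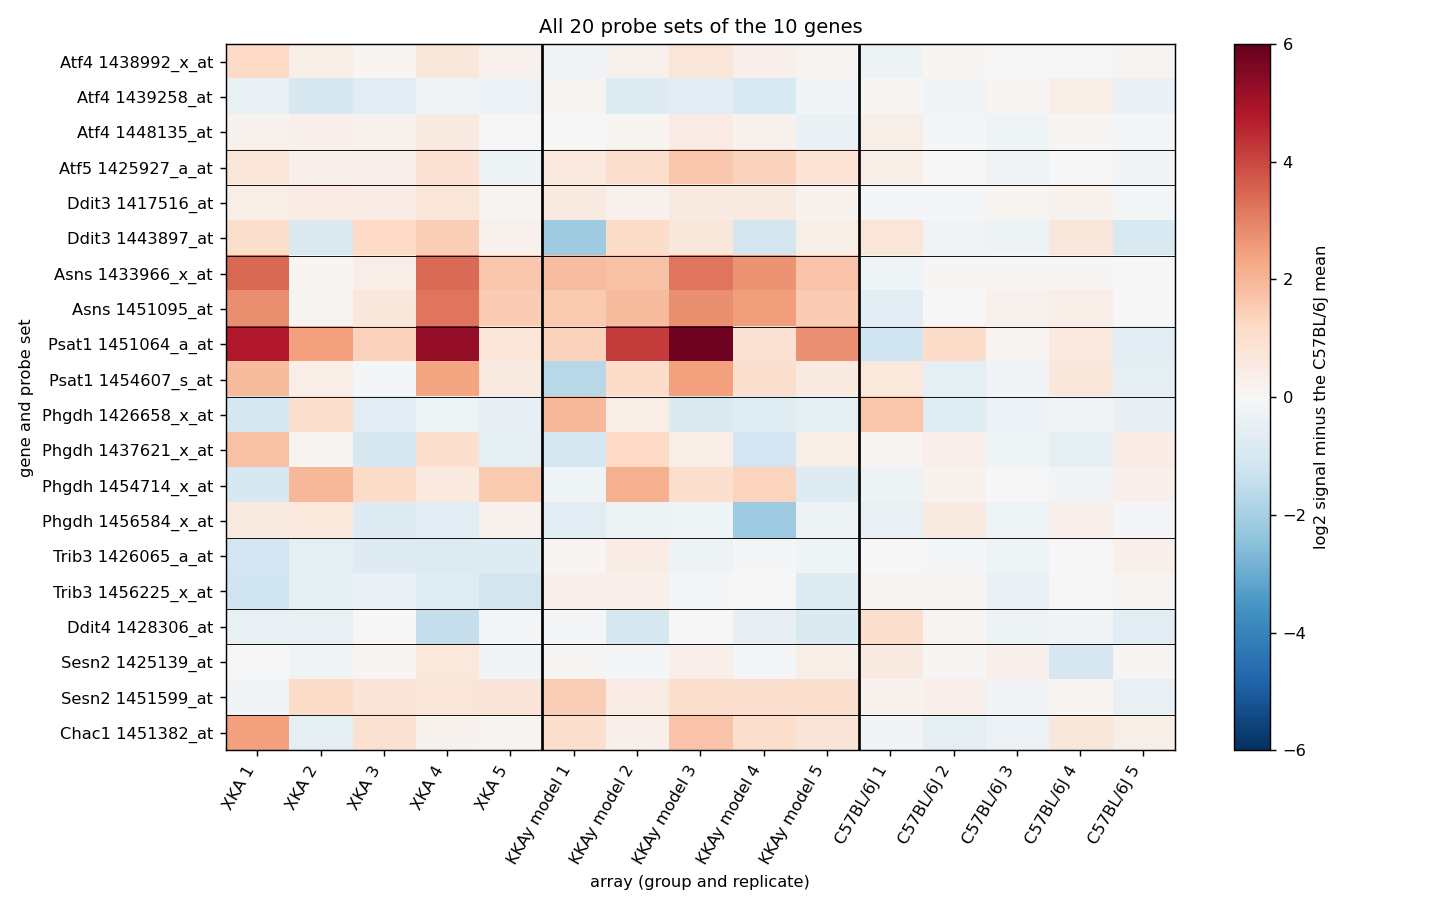
Log2 signal of each of the 20 probe sets (y axis) in each array (x axis) minus the mean log2 signal of the 5 C57BL/6J arrays, as colour (red higher, blue lower). The 2 Asns probe sets follow each other array by array, the 2 Trib3 probe sets are blue in the XKA arrays, and the 4 Phgdh probe sets share no pattern.

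Trib3 encodes a pseudokinase that ATF4 induces and that binds ATF4 and the kinase AKT in turn. It was the only member that passed as lower in a comparison. Trib3 lies 2.61 Mb from agouti on chromosome 2, and the part of sequence near agouti in its values against C57BL/6J was not tested. Its signals were 4855, 7429, 8306, 6744 and 5215 in the XKA arrays, 13726, 13572, 10434, 11038 and 6393 in the KKAy model arrays and 12531, 12194, 8239, 11319 and 11659 in the C57BL/6J arrays (1456225_x_at). XKA lay below the KKAy model apart from KKAy model replicate 5, and below C57BL/6J apart from an overlap of XKA replicate 3 with C57BL/6J replicate 3. The KKAy model averaged 11033 ± 2983 and C57BL/6J 11189 ± 1714 (SD, n = 5 each), a change of -0.06 (95% confidence interval -0.47 to 0.36, adjusted p = 0.907 from limma). Trib3 fell by 0.80 on the log2 scale under XKA over C57BL/6J (standard error 0.20, adjusted p = 0.0170), a call kept in 24 of 26 alternative settings. In the fit of all probe sets 1456225_x_at also passed over C57BL/6J (adjusted p = 0.0219), but this was kept in only 16 of 25 alternative settings. Over the KKAy model it passed in 0 of 25.

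For XKA over the KKAy model the change of Trib3 was -0.74 (95% confidence interval -1.16 to -0.32, adjusted p = 0.171), which did not pass over all genes. Without KKAy model replicate 5 it was -0.92 and passed (adjusted p = 0.0387), 1 of 26 alternative settings in which it did. The second probe set, 1426065_a_at, had signals of 4363, 6723, 5594, 5454 and 5687 in the XKA arrays, 10377, 13021, 7945, 9302 and 8124 in the KKAy model arrays and 9911, 8999, 8156, 9738 and 11951 in the C57BL/6J arrays. All 5 XKA arrays lay below all 10 others on this probe set, whereas the representative probe set overlapped in both comparisons. The share without overlap was counted for genes only, 1.42% for XKA over the KKAy model and 7.03% for XKA over C57BL/6J. In the fit of all 45037 probe sets 1426065_a_at fell by 0.81 on the log2 scale over C57BL/6J (standard error 0.16, adjusted p = 0.00307). Over the KKAy model its change of -0.80 had an adjusted p of 0.0568 (standard error 0.16), and it passed in 4 of 25 alternative settings, among them the values as deposited (0.0397) and quantile normalization (0.0323). In that fit 0.0799% of all probe sets passed between XKA and the KKAy model and 4.78% between XKA and C57BL/6J. The 2 probe sets correlated at r = 0.874 over the 15 arrays. Clock genes moved in the same comparison of XKA with C57BL/6J, where 7.48% of all genes passed. Per2 and Dbp were higher and Arntl and Clock lower, 4 of 7 measured (3 without scaling and after quantile normalization, where Dbp did not pass, with adjusted p = 0.0694 and 0.0605). For XKA over the KKAy model none of the 7 passed, but their median change was 0.80, with 5 above 0. There Per2 gave 0.96 (adjusted p = 0.0877 from limma), Dbp 0.80, Arntl -0.91 and Clock -0.60. The part of the clock genes in the Trib3 values of either comparison was not tested.

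Sesn2 encodes a leucine sensor that holds back mTORC1. Its probe set 1451599_at had signals of 2354, 5533, 4473, 4363 and 4421 in the XKA arrays, 7160, 3554, 5345, 5209 and 5005 in the KKAy model arrays and 2986, 3207, 2302, 2858 and 1933 in the C57BL/6J arrays. The KKAy model did not overlap with C57BL/6J, and under XKA replicate 1 alone lay in the C57BL/6J range. Sesn2 rose 1.96-fold in the KKAy model over C57BL/6J (0.97 on the log2 scale with a standard error of 0.23, adjusted p = 0.00771 from limma). XKA over the KKAy model gave -0.33 (95% confidence interval -0.81 to 0.15, adjusted p = 0.734) and XKA over C57BL/6J 0.64 (0.16 to 1.12, adjusted p = 0.107), which became 0.84 without XKA replicate 1 (adjusted p = 0.0159). The dimmer probe set 1425139_at did not follow (change of 0.11 in the KKAy model, r = 0.0767 between the probe sets), and the call was lost when the probe sets were averaged (0.54, adjusted p = 0.0899).

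Ddit4 encodes REDD1, another inhibitor of mTORC1, which glucocorticoids and hypoxia also induce. Its signals were 4689, 4667, 6470, 2457 and 5849 in the XKA arrays, 6081, 3227, 6534, 4569 and 3503 in the KKAy model arrays and 12776, 7014, 5055, 5671 and 3999 in the C57BL/6J arrays. The groups overlapped, with C57BL/6J replicate 1 far above the rest. The change was -0.46 for the KKAy model over C57BL/6J (95% confidence interval -1.09 to 0.16, adjusted p = 0.364 from limma) and close to 0 for XKA over the KKAy model (-0.62 to 0.62, adjusted p = 0.999).

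Chac1 encodes an enzyme that breaks down glutathione and is induced through ATF4. Its signals were 27985, 3425, 9506, 5872 and 5679 in the XKA arrays, 10130, 6283, 16591, 10591 and 8672 in the KKAy model arrays and 4604, 3530, 3949, 8305 and 6499 in the C57BL/6J arrays. The KKAy model overlapped with C57BL/6J, and XKA replicate 1 was the highest of all 15 arrays while XKA replicate 2 was the lowest. The change was 0.96 for the KKAy model over C57BL/6J (standard error 0.40, 95% confidence interval 0.12 to 1.80, adjusted p = 0.134 from limma). It passed when XKA replicate 1 was left out of the fit (adjusted p = 0.0276) or when only these 2 groups were fitted (0.0198). XKA over the KKAy model gave -0.33 (95% confidence interval -1.18 to 0.51, adjusted p = 0.874).

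The reverse rate is the share of the difference between the KKAy model and C57BL/6J by which the XKA mean lies back towards C57BL/6J, computed on means of the scaled signal, so that 0 is no return and 1 a full one. Among the 3 members that passed between the KKAy model and C57BL/6J it was 0.711 for Atf5, with a range of 0.594 to 0.805 when 1 array was left out. It was 0.395 for Sesn2 (0.215 to 0.520) and 0.0204 for Asns (-0.218 to 0.390). It was -0.0206 for Asns in the values as deposited. None of the 3 passed between XKA and the KKAy model, so these rates describe means. The KKAy model mean enters both differences, and the 3 were chosen for a high one. A mean that is high by chance would therefore raise the rate without any effect of the treatment.

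For 1 of the 45 pairs of members the spread within groups was correlated past the threshold. The 15 arrays and the adjustment over 45 pairs limit this test, so the other pairs are not shown to vary separately. The deviations of each array from its group mean were correlated for all 45 pairs of members over the 15 arrays, with permutation within groups. Only Atf4 and Atf5 passed after adjustment over the 45 pairs (Pearson r = 0.812, permutation p = 0.00067, adjusted p = 0.0301, Spearman rho = 0.864, permutation p = 0.0003, adjusted p = 0.0135). Without the 2 arrays farthest from the median of Atf4, r was 0.816. Atf4 was lowest in the array with the highest deposited median of each group. These were replicate 5 under XKA (161), replicate 5 in the KKAy model (162) and replicate 3 in the non-diabetic mice (182). Atf5 was lowest there too, except that KKAy model replicate 1 was lower still. Golga2, Epc1, Eif3c, Ube2j2 and Gtf2e1, picked for likeness to Atf4, had r = 0.860 to 0.916 with it within groups. The part of the scaling in the r of Atf4 and Atf5 was not tested. Atf5 and Psat1 gave r = 0.775 (permutation p = 0.003, adjusted p = 0.0675, rho = 0.779), and Asns and Psat1 r = 0.666 (permutation p = 0.0102, adjusted p = 0.153, rho = 0.704). No pair with Trib3 passed. Of the 45 coefficients, 31 were positive and the range was -0.503 to 0.812. The genes whose log2 signal was most like that of Asns over the 15 arrays, among all genes above the array median on average, were Cnpy4, Flvcr1, Mtmr7, Ntrk2 and Gucy2c (r = 0.905 to 0.875). Those most like Trib3 were Naxe, Gm5891, Msh3, Cenpa and Spp2 (r = 0.921 to 0.874), and those most like Atf4 were Golga2, Epc1, Eif3c, Ube2j2 and Gtf2e1 (r = 0.904 to 0.873). These are descriptions over arrays that share groups.

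Of the kinases and phosphatase subunits that act on eIF2alpha, none of the 6 measured passed between the KKAy model and C57BL/6J (median change 0.17, and -0.02 as deposited). Ppp1r15b, a subunit of the phosphatase that ends the response, was higher under XKA than in C57BL/6J (0.51, adjusted p = 0.0113 from limma). Of 8 amino acid transporters 1 rose in the KKAy model over C57BL/6J, a share near the 10.6% of all genes that passed upward. It was Slc1a4, which carries neutral amino acids including serine (1.48, adjusted p = 4.62e-05). Slc1a4 was also higher under XKA than in C57BL/6J (0.79, adjusted p = 0.0184), a call lost in the values as deposited (0.0731). Its signals were 3679, 2277, 2632, 2782 and 3003 in the XKA arrays, 3987, 6100, 5044, 4051 and 4085 in the KKAy model arrays and 1268, 1876, 1600, 2043 and 1540 in the C57BL/6J arrays. The 3 groups did not overlap, with the KKAy model highest and XKA between, although XKA over the KKAy model did not pass (-0.69, adjusted p = 0.223).

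Of 12 tRNA synthetases and the tRNA exporter Xpot, 4 of the 13 rose in the KKAy model over C57BL/6J and none was lower. Of all genes, 10.6% passed upward in this comparison. Gars for glycine rose by 0.71 (adjusted p = 0.000187), Eprs for glutamate and proline by 0.51 (0.00956), Mars1 for methionine by 0.40 (0.0400) and Xpot by 0.50 (0.0351). The median of the 13 was 0.35, against 0.15 for all genes, with 12 above 0, and in the values as deposited 2 passed (Gars and Eprs), the median was 0.16 and 8 were above 0. After quantile normalization 3 passed. Gars averaged 22790 ± 2929 under XKA, 31217 ± 2726 in the KKAy model and 19106 ± 1188 in C57BL/6J (SD, n = 5 each), and XKA over the KKAy model gave -0.46 (adjusted p = 0.112). Among the 6 enzymes of serine, glycine, proline and one-carbon metabolism 3 rose in the KKAy model, where 10.6% of all genes passed upward. Mthfd1l, a mitochondrial enzyme of the folate cycle, rose by 2.20 (adjusted p = 1.67e-06), Psph, the last enzyme of serine synthesis, by 0.78 (0.00915) and Aldh18a1, the first of proline synthesis, by 1.17 (0.0434, and 0.0819 as deposited).

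Mthfd1l averaged 13980 ± 3316 under XKA, 9706 ± 3137 in the KKAy model and 2095 ± 659.9 in C57BL/6J (SD, n = 5 each). It was higher under XKA than in C57BL/6J by 2.75 (adjusted p = 1.16e-07), and XKA over the KKAy model gave 0.55 (adjusted p = 0.490). Of 11 other genes linked to ATF4, 3 rose in the KKAy model over C57BL/6J, where 10.6% of all genes passed upward. These 3 were Fgf21, a hormone of the fasting and amino acid response (1.80, adjusted p = 0.00346), the AP-1 family repressor Jdp2 (0.82, 0.0314) and Eif4ebp1, a brake on cap-dependent translation (0.45, 0.0171). In the values as deposited Fgf21 alone of these passed. Fgf21 averaged 2944 ± 669.2 under XKA, 4669 ± 2841 in the KKAy model and 1371 ± 779.0 in C57BL/6J (SD, n = 5 each), and also passed for XKA over C57BL/6J (1.28, adjusted p = 0.0476), though not as deposited (0.119). Cebpb, the partner of ATF4 on composite sites, gave 0.52 in the KKAy model (adjusted p = 0.0532).

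For the other arms of the unfolded protein response, 15 chaperones and regulators were measured, among them Hspa5, Xbp1 and Atf6. Dnajc3 alone passed in the KKAy model over C57BL/6J (0.56, adjusted p = 0.0459), where 10.6% of all genes passed upward. It did not pass as deposited (0.198). Herpud1, a factor of endoplasmic reticulum protein degradation, was higher under XKA than in C57BL/6J (0.66, adjusted p = 0.0131). The medians of the 15 were 0.23 for the KKAy model over C57BL/6J, -0.17 for XKA over the KKAy model and 0.06 for XKA over C57BL/6J. No gene of these 6 pathway lists passed between XKA and the KKAy model. Gpt2, an alanine aminotransferase, passed there in the values as deposited (0.49, adjusted p = 0.0441) and after quantile normalization (0.52, adjusted p = 0.00434). Of 8 genes of fasting and feeding, Srebf1 alone passed in the KKAy model over C57BL/6J, as higher. Ppargc1a passed as lower without scaling (adjusted p = 0.0106) and after quantile normalization (0.0230), and Cpt1a after quantile normalization (0.0151). Of 7 acute phase genes 5 were higher, where 10.6% of all genes passed upward. The calls of Atf5, Asns and Sesn2 between the KKAy model and C57BL/6J were also made without KKAy model replicate 3 and XKA replicate 1, the arrays of each KKAy group with the highest acute phase signal, but the summed acute phase signal of every remaining KKAy model array (1361840 to 2425220) still lay above that of every C57BL/6J array (480835 to 829222). The part of feeding state or of the acute phase in these changes was not tested.

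**Figure D4:**
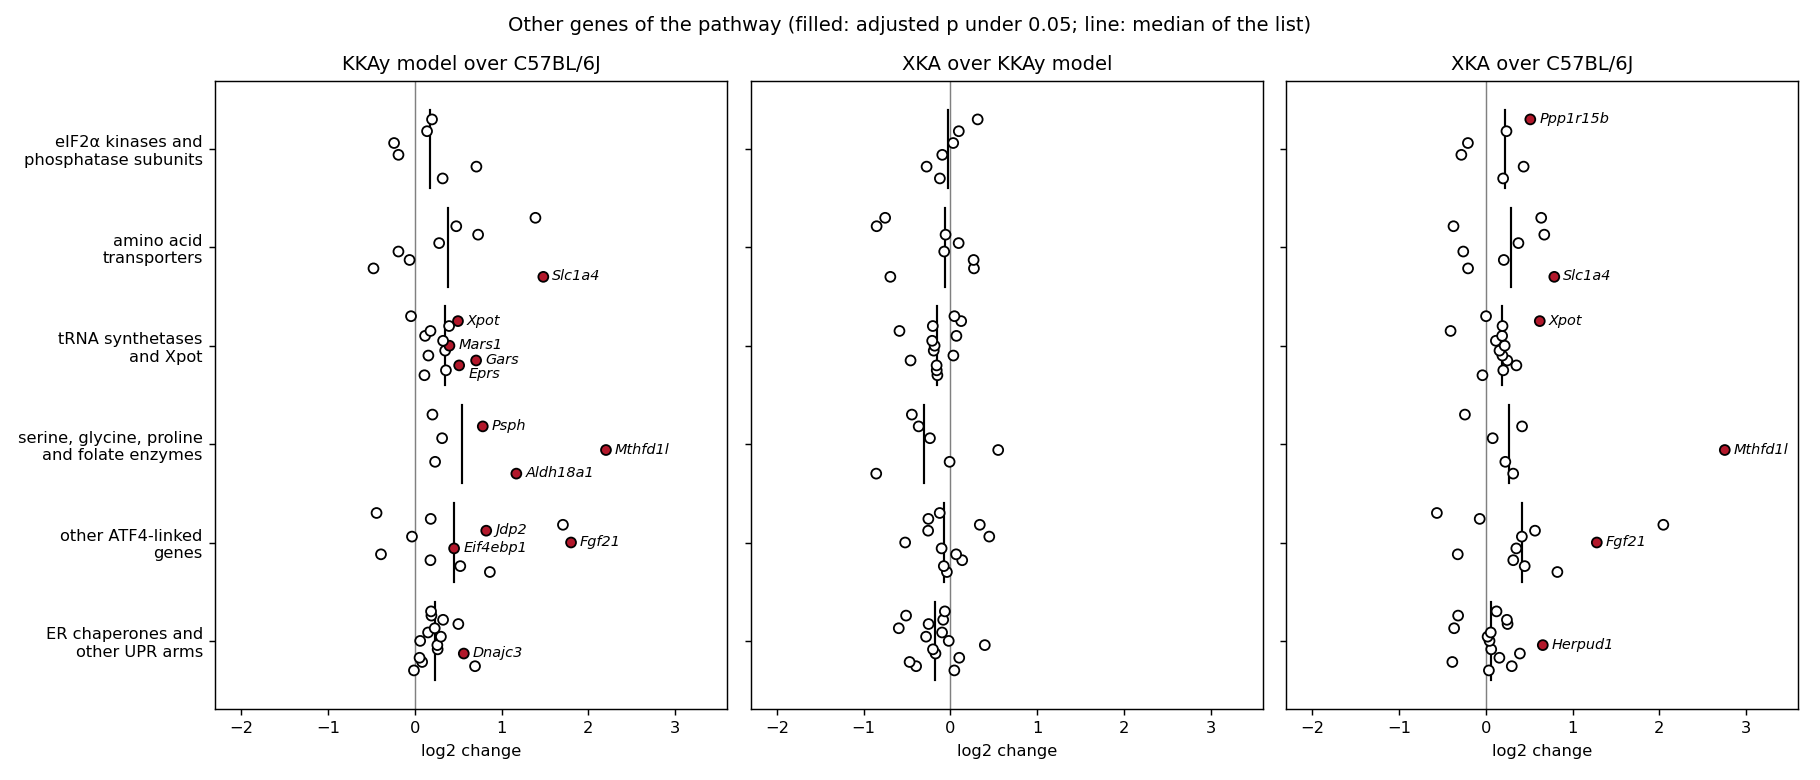
Log2 change (x axis) of each measured gene of 6 pathway lists (y axis) in the 3 comparisons. Filled points have an adjusted p under 0.05 from limma and are named, and vertical lines are medians of a list. The 12 filled points of the first panel are all above 0, and the panel of XKA over the KKAy model has none.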

How the data were processed

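Liver RNA of 15 mice was hybridised to Affymetrix 3′ arrays, 1 array per mouse, 5 per group. The authors deposited intensity values of 45101 probe sets on a linear scale. The sources used here do not give the probe summarisation. The methods name a scaling to a median of 1000 in ArrayTrack. The deposited medians were 136 to 161 in the XKA arrays, 127 to 162 in the KKAy model arrays and 146 to 182 in the C57BL/6J arrays, so each array was scaled to 1000 here. After 64 control probe sets were left out, 34945 probe sets carried 1 symbol in GEO's platform annotation, 932 several and 9160 none. Each of 18194 genes was represented by its brightest probe set. Log2 signals were compared in R 4.3.3 with limma 3.58.1 (intensity trend, all 15 arrays in 1 fit, two-sided) in place of the Dunnett comparisons of the methods, which were an alternative run with mvtnorm 1.3.3. Promoters were searched and figures drawn under Python 3.11.15 (matplotlib 3.10.9 and pandas 2.3.3). Pair correlations used 100000 draws within groups. The code was tested on simulated data.

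The members and gene lists were chosen with earlier results of these data known. The text names all members, up to 6 genes past the test in each pathway list by size of change, and the 5 genes most like Asns, Trib3 and Atf4. Cebpb, Gpt2 and the list genes beyond this were chosen after their values were seen. Eif2s1, Pycr1, Gdf15, Cfd, Plin1 and Pnlip were not analysed here. Nothing says that same-numbered mice are related, so the numbers were tried as a block only. The 3′ to 5′ ratio of the Gapdh control probe sets was 0.710 to 1.18 over the arrays, and that of the beta-actin control probe sets 2.48 to 3.42. Both ratios were highest in C57BL/6J replicate 5. Alternatives changed the scaling, the pseudocount, the choice among probe sets, the filter on dim genes, the test, the groups fitted or the block, or left out each array in turn.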

Additional observations from a re-analysis of the deposited data

Results flagged for a closer look

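In 5 of the 60 groups of 5 arrays formed by the 20 probe sets and 3 groups, 1 array lay far from the other 4, where chance gives about 3. The measure is the gap to the nearest array divided by the range of the group, both on the log2 scale. It was 0.722 for Sesn2 (1451599_at) in XKA replicate 1, with a signal of 2354 against 4363 to 5533 in the other XKA arrays. It was 0.759 for Phgdh (1426658_x_at) in C57BL/6J replicate 1, with 4966 against 944 to 1407. The Phgdh probe set 1456584_x_at gave 0.778 in KKAy model replicate 4, with 275 against 770 to 1033. The Asns probe set 1433966_x_at gave 0.792 in C57BL/6J replicate 1, with 2121 against 2536 to 2657, a small distance in signal. Trib3 (1456225_x_at) gave 0.757 in C57BL/6J replicate 3, with 8239 against 11319 to 12531, and this array is the one that overlaps with the XKA arrays.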

How the results depend on the processing

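Between the KKAy model and C57BL/6J, Atf5 passed in all 26 alternatives and Asns and Sesn2 in 25 each. Asns missed with Dunnett comparisons (adjusted p = 0.0586) and Sesn2 with the mean of probe sets (0.0899). The split of calls depends on the scaling. There were 1924 higher and 442 lower genes after scaling, 1137 and 1027 as deposited, and 1602 and 1102 after quantile normalization. For XKA over C57BL/6J it was 1006 and 355, 703 and 780, and 1021 and 805. The cause was not tested.

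For XKA over the KKAy model the 32 genes became 63 as deposited, 113 after quantile normalization, 52 with array weights, 19 with 2 groups only, 6 with the mean of probe sets, 4 without the intensity trend and 0 with Dunnett comparisons (944 genes at an unadjusted p under 0.05). The 36 probe sets became 72, 132, 63 without dim probe sets, 17 with 2 groups only, 0 without the trend (3338 at an unadjusted p under 0.05 in limma) and 0 with Dunnett comparisons (2126). The 1361 genes for XKA over C57BL/6J became 828 with the mean of probe sets, 892 without the trend and 711 with Dunnett comparisons, and the 2366 for the KKAy model over C57BL/6J became 1379 with Dunnett comparisons. For probe sets, the trend and Dunnett alternatives gave 2409 and 2098 of 3804 for the KKAy model, and 1208 and 1070 of 2154 for XKA, over C57BL/6J. Of the 45 member pairs 3 passed as deposited and 2 after quantile normalization.

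Changes near 0 turned. For the KKAy model over C57BL/6J, Atf4 gave -0.11 as deposited, -0.12 after quantile normalization, -0.043 with the mean of probe sets and -0.021 without the acute phase arrays. Phgdh gave -0.15 as deposited and -0.012 with the mean of probe sets, and Trib3 0.034 with array weights. For XKA over the KKAy model, Ddit4 gave 0.035, 0.047 and 0.12 as deposited, after quantile normalization and without the acute phase arrays, and Phgdh 0.23 with the mean of probe sets (0.21 over C57BL/6J). The reverse rate of Asns gave -0.0206 and -0.101 as deposited and after quantile normalization.

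Leaving out 1 array gave 1676 to 2789 genes for the KKAy model over C57BL/6J, 11 (without XKA replicate 3) to 54 (without XKA replicate 1) for XKA over the KKAy model and 963 to 1454 for XKA over C57BL/6J, and 2697 to 4312, 9 to 56 and 1513 to 2296 probe sets. For the KKAy model over C57BL/6J it gave -0.021 to 0.20 for Atf4, -0.43 to 0.46 for Phgdh and -0.16 to 0.13 for Trib3. For XKA over the KKAy model it gave -0.033 to 0.10 for Ddit3, -0.25 to 0.78 for Psat1, -0.66 to 0.13 for Phgdh and -0.13 to 0.22 for Ddit4. Phgdh ran from -0.61 to 0.12 for XKA over C57BL/6J, and the reverse rate of Asns from -0.218 to 0.390.

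The replicate numbers do not pair the samples. Deviations of same-numbered arrays correlated at -0.045 to 0.092, none over 0.1. With the replicate number as a block, 2103 genes passed for the KKAy model over C57BL/6J, 22 for XKA over the KKAy model and 1195 for XKA over C57BL/6J, and 3380, 24 and 1900 probe sets. Without dim genes Psat1 was not tested. Psat1 and Phgdh lay near or below the array median on many arrays, which limits what their probe sets can show.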
